A study of Mus musculus with 13 samples.

Results

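Invariant natural killer T (iNKT) cells of the thymus were compared between the iNKT1 and the iNKT2p sort of BALB/c mice at 25 weeks of age, across every gene whose normalized count reached 10 in 2 or more of the 4 libraries. Of 24421 genes in the deposited table, 10761 met this rule, which takes no account of a difference between the sorts. The study sequenced total RNA from sorted iNKT1, iNKT2 and iNKT17 cells of wild-type mice aged 6 and 25 weeks, with 2 libraries a group. All mice were female BALB/c animals without further alleles or treatment, and the methods give the older age as 25 to 26 weeks. Each library held cells pooled from several mice. The aged iNKT1 libraries were made from 468000 and 500000 cells that were B220-, CD3+, positive for the CD1d tetramer and CD122+. The aged iNKT2p libraries were made from 73800 and 74600 cells of the same tetramer gate that were CD122- and CD4+. The letter p stands for pool, since this gate held several populations in aged thymi. Cell number and sort therefore cannot be told apart. The methods state the total RNA taken for library preparation as a single range, without a tie to cell number.

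All iNKT cells carry a nearly fixed T cell receptor that sees lipids on CD1d, and their subsets resemble the helper lineages of conventional T cells. iNKT1 cells depend on the transcription factor TBET, make interferon-γ and carry many receptors of natural killer (NK) cells. iNKT2 cells are high in PLZF and make interleukin (IL)-4 and IL-13, whereas iNKT17 cells make IL-17. A comparison of iNKT1 with iNKT2p cells shows which genes separated both sorts in the aged thymus.

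The libraries held 9067693 and 5334215 reads in genes for iNKT1 and 9107274 and 5946582 for iNKT2p cells, and 1 read was worth 0.710 to 1.29 normalized counts. Of the tested genes, 93.0% lay within 1 log2 unit of each other in the 2 iNKT1 libraries and 91.8% in the 2 iNKT2p libraries. The 12 libraries of the series shared 1 estimate of the spread in limma, with 6 residual degrees of freedom. Values below are normalized counts of library 1 and library 2 of a group. The log2 difference is iNKT1 minus iNKT2p on the scale of log2(normalized count + 1), which understates differences of low genes, and calls were made below an adjusted p of 0.05. Where a group had 0 reads, its limit was set at 3 reads over both libraries. Such limits and intervals cover counting error only. In these bulk libraries, fewer cells of a type and less RNA per cell cannot be told apart.

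The proteins of the genes Il2rb and Cd4 were used to sort the cells, so their levels check the labels and are no finding. Il2rb, which encodes CD122, was at 9387 and 9709 in iNKT1 and 739.6 and 729 in iNKT2p cells. Cd4 was at 612 and 599.8 in iNKT1 and 4004 and 3869 in iNKT2p cells. Both genes lay on the side that the gates prescribe, and neither overlapped between the sorts.

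Most tested genes of cytotoxic granules and NK cell receptors were higher in iNKT1 cells, and most tested markers of iNKT2 cells and genes of double-positive thymocytes were higher in iNKT2p cells. limma called 780 genes higher in iNKT1 cells, which is 7.25% of the 10761 genes tested, and 886 higher in iNKT2p cells, which is 8.23%. At an absolute log2 difference of at least 2, these were 341 and 518 genes. Of the 886 genes, 119 had 0 reads in both iNKT1 libraries, and of the 780 genes, 37 had 0 reads in both iNKT2p libraries. The values of called genes did not overlap between the sorts in any case, which follows largely from the call itself. With 2 libraries a group, values also often separate in genes without a difference. Separation is therefore named below as a description only. The median log2 difference of all tested genes was −0.02. The counts fell to 411 genes higher in iNKT1 cells without iNKT1 library 2, to 449 without iNKT1 library 1 and to 488 without iNKT2p library 2, and to 513, 536 and 571 genes higher in iNKT2p cells without iNKT2p library 2, iNKT1 library 2 and iNKT2p library 1. With only the 4 libraries compared, they were 1276 and 1383.

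**Figure D1:**
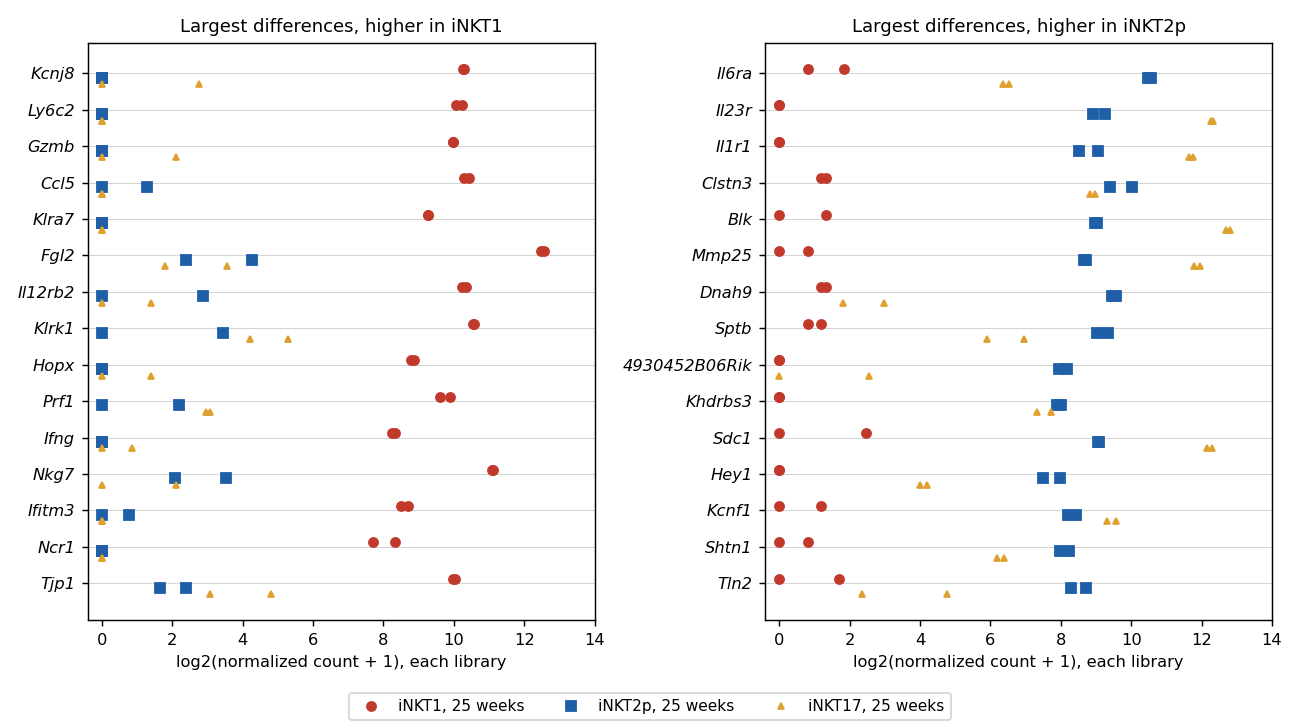
Normalized counts of the 15 genes with the largest log2 difference in each direction, as log2(normalized count + 1) on the horizontal axis, with 1 point per library. Red circles are iNKT1, blue squares iNKT2p and yellow triangles iNKT17 cells, all at 25 weeks. The iNKT1 and iNKT2p points of a gene lie far apart in every row, and for Il23r, Il1r1, Blk, Mmp25, Sdc1 and Kcnf1 the iNKT17 points lie above the iNKT2p points.

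The largest differences in favour of iNKT1 cells were found in genes for killing, for chemotaxis and for a potassium channel. Gzmb, which encodes granzyme B of cytotoxic granules, was at 1016 and 1008 in iNKT1 and 0 and 0 in iNKT2p cells, and was at least 789-fold higher in iNKT1 cells (limma adjusted p = 7.61e-06). Prf1, the pore-forming protein perforin, was at 957 and 785 in iNKT1 and 3.55 and 0 in iNKT2p cells (log2 difference 8.67, standard error 0.68, limma adjusted p = 6.09e-06). Nkg7, a membrane protein of the same granules, was at 2194 and 2155 in iNKT1 and 10.6 and 3.23 in iNKT2p cells (log2 difference 8.28, standard error 0.88, limma adjusted p = 5.38e-05). For these 3 genes the iNKT2p libraries were at 10.6 or below. Ifng, which encodes interferon-γ, was at 305 and 322 in iNKT1 and 0 and 0 in iNKT2p cells, at least 244-fold higher in iNKT1 cells (limma adjusted p = 3.67e-06). Ccl5, a chemokine for T cells and monocytes, was at 1247 and 1369.6 in iNKT1 and 1.42 and 0 in iNKT2p cells, a ratio of 1509.7-fold (95% exact interval 418 to 12473). Xcl1, a chemokine for cross-presenting dendritic cells, was at 369 and 422 in iNKT1 and 0 and 2.15 in iNKT2p cells (log2 difference 7.80, standard error 0.72, limma adjusted p = 1.8e-05). Each chemokine had 2 reads over both iNKT2p libraries.

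Surface proteins and other products made up the rest of the 15 largest differences. Kcnj8, a subunit of an ATP-sensitive potassium channel, was at 1225 and 1243 in iNKT1 and 0 and 0 in iNKT2p cells, at least 962-fold higher in iNKT1 cells (limma adjusted p = 6.1e-06). Ly6c2, which encodes a form of the memory marker LY6C, was at 1075 and 1207 in iNKT1 and 0 and 0 in iNKT2p cells, at least 889-fold higher (limma adjusted p = 1.38e-06). Neither gene had a read in an iNKT2p library. Fgl2, a fibrinogen-like protein that is secreted or bound to the membrane, was at 5995 and 5664 in iNKT1 and 4.26 and 18.3 in iNKT2p cells (log2 difference 9.18, standard error 1.10, limma adjusted p = 0.00013). Tjp1, the scaffold protein ZO-1 of tight junctions, was at 1004 and 1058 in iNKT1 and 4.26 and 2.15 in iNKT2p cells (log2 difference 7.99, standard error 0.79, limma adjusted p = 3.1e-05). Il12rb2, the signalling chain of the IL-12 receptor, was at 1197 and 1306 in iNKT1 and 6.39 and 0 in iNKT2p cells (log2 difference 8.85, standard error 1.00, limma adjusted p = 8.56e-05). Each of these 3 genes had some reads in iNKT2p cells, at levels far below those of iNKT1 cells. Hopx, a homeodomain protein that does not bind DNA, was at 438 and 465 in iNKT1 and 0 and 0 in iNKT2p cells, at least 352-fold higher in iNKT1 cells (limma adjusted p = 2.15e-05). Ifitm3, a restriction factor for viruses in endosomes, was at 359 and 418 in iNKT1 and 0.710 and 0 in iNKT2p cells (log2 difference 8.22, standard error 0.72, limma adjusted p = 1.37e-05). Its neighbours Ifitm2 (359 and 498 in iNKT1 and 0 and 2.15 in iNKT2p cells) and Ifitm1 (86.0 and 88.8 in iNKT1 and 0 and 0 in iNKT2p cells) were separated in the same direction (limma adjusted p = 2.11e-05 and 0.000168).

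All 20 iNKT1 markers of a list drawn up for the subset, the sort gene Il2rb included, passed the filter and all were called higher in iNKT1 cells, with a median log2 difference of 6.61. The list holds genes that the paper names as signatures in these same libraries, such as Fgl2 and Slamf7. Its count is thus no independent check. Of the 17 tested transcription factors of type 1 lymphocytes, 11 were called higher in iNKT1 cells, none in iNKT2p cells, and 6 were not called. Tbx21, which encodes TBET, was at 2168 and 1920.5 in iNKT1 and 104 and 37.7 in iNKT2p cells (log2 difference 5.00, standard error 0.40, limma adjusted p = 6.47e-06). Eomes, the second T-box factor of cytotoxic cells, was lower, at 114 and 127 in iNKT1 and 0 and 10.8 in iNKT2p cells (log2 difference 5.15, standard error 1.02, limma adjusted p = 0.00442). Stat4, which passes on signals of IL-12, was at 1599 and 1521 in iNKT1 and 56.8 and 72.2 in iNKT2p cells (log2 difference 4.59, standard error 0.30, limma adjusted p = 1.7e-06). The sorts did not overlap in any of these factors. In the aged iNKT2p gate, the paper found by flow cytometry some cells with TBET, below the level of iNKT1 cells. These cells made interferon-γ when stimulated, whereas the RNA here came from cells that were not stimulated. Typical iNKT1 signature genes were not detected in this sort by the paper. Nfil3, which is needed for NK cell development, was at 141 and 122 in iNKT1 and 22.7 and 0 in iNKT2p cells (log2 difference 4.76, standard error 1.16, limma adjusted p = 0.0147), a call that was lost without iNKT1 library 1, iNKT1 library 2 or iNKT2p library 2 (adjusted p = 0.0915, 0.0843 and 0.104) and in DESeq2 (adjusted p = 0.0567). Runx3, a factor of the cytotoxic programme, was at 2089 and 2233 in iNKT1 and 638 and 614 in iNKT2p cells and was not called (log2 difference 1.79, standard error 0.57, limma adjusted p = 0.0549), without overlap between the sorts. Id2, an inhibitor of E proteins, was at 4019 and 4133 in iNKT1 and 3299.6 and 3475 in iNKT2p cells and was not called (limma adjusted p = 0.516).

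Of the 28 tested NK cell receptors and adaptors (38 in the list and in the table), 22 were called higher in iNKT1 cells, 1 was called higher in iNKT2p cells and 5 were not called, with a median log2 difference of 5.49. The median was the same with the 6 genes of 0 reads in iNKT2p cells set to their limits. Klra7, which encodes an inhibitory receptor of the LY49 family, was at 616 and 611 in iNKT1 and 0 and 0 in iNKT2p cells, at least 478-fold higher in iNKT1 cells (limma adjusted p = 5.37e-06). Klra3, another one, was at 1785 and 2117 in iNKT1 and 46.8 and 24.8 in iNKT2p cells (log2 difference 5.79, standard error 0.46, limma adjusted p = 6.47e-06). Since Klra genes are near copies, the assignment of reads among them is uncertain. Klrk1, the activating receptor NKG2D, was at 1499.6 and 1534 in iNKT1 and 9.94 and 0 in iNKT2p cells (log2 difference 8.84, standard error 0.86, limma adjusted p = 2.62e-05). Ncr1, the activating receptor NKp46, was at 209 and 319 in iNKT1 and 0 and 0 in iNKT2p cells, at least 206-fold higher in iNKT1 cells (limma adjusted p = 1.09e-05). Cd244, a SLAM family receptor of NK cells, was at 213 and 229 in iNKT1 and 0 and 0 in iNKT2p cells, at least 172-fold higher (limma adjusted p = 4.91e-05). Signalling adaptors of these receptors lay on the same side. Fcer1g, the FcRγ chain, was at 390.4 and 651 in iNKT1 and 4.97 and 0 in iNKT2p cells (log2 difference 7.69, standard error 0.90, limma adjusted p = 0.000107), and Tyrobp, which encodes DAP12, at 26.2 and 24.5 in iNKT1 and 0 and 0 in iNKT2p cells (limma adjusted p = 0.00399). Hcst, the adaptor DAP10 of NKG2D, was also measured in iNKT2p cells, at 102 and 121 against 301 and 317 in iNKT1 cells (log2 difference 1.47, standard error 0.28, limma adjusted p = 0.00355). The single gene called on the other side was the low-affinity Fc receptor Fcgr3, at 4.49 and 2.57 in iNKT1 and 12.1 and 34.5 in iNKT2p cells (limma adjusted p = 0.0448). This call held in 11 of 20 alternatives and was lost without iNKT1 library 1, iNKT1 library 2 or iNKT2p library 2 (adjusted p = 0.0981, 0.239 and 0.342) or without either young iNKT2 library (adjusted p = 0.0669 for both).

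Many of these receptors lie next to each other in the NK gene complex. Between Klrb1c and Klra1 (chr6:128778485-130386874, mm10), 27 genes were tested, of which 20 were called higher in iNKT1 cells, 1 higher in iNKT2p cells and 6 not called, with a median log2 difference of 4.72. The part with the Klrb1 and Clec2 genes held all 6 genes that were not called and Gm15987, which was called higher in iNKT2p cells. From Gabarapl1 onwards, all genes tested were called higher in iNKT1 cells. This region was picked after its values were seen.

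**Figure D2:**
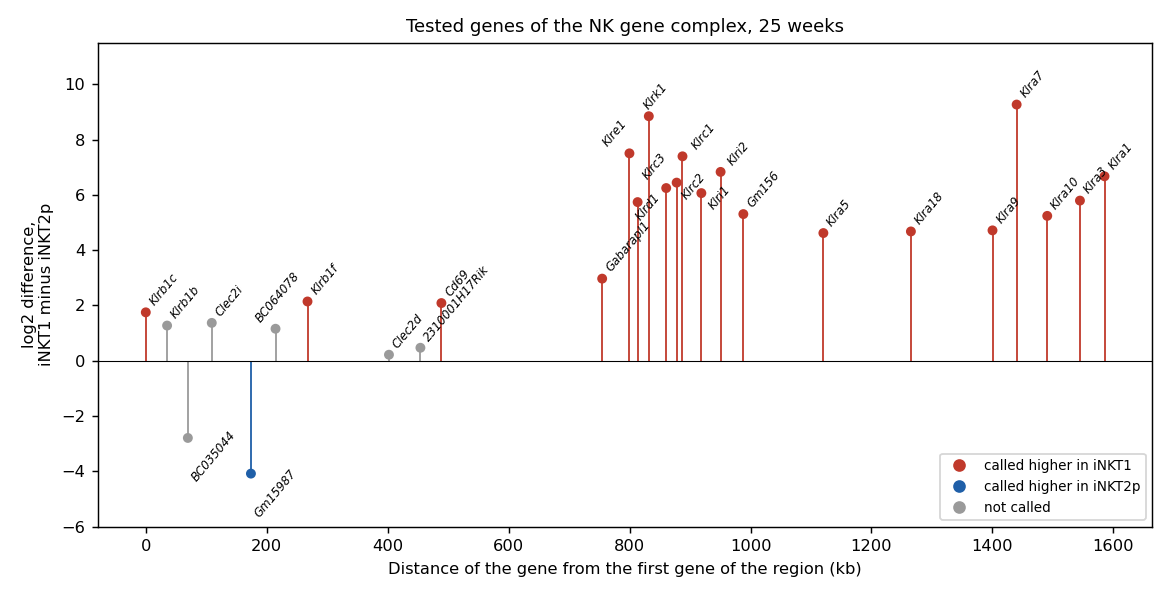
Log2 difference of iNKT1 minus iNKT2p at 25 weeks (vertical axis) for the 27 tested genes of the NK gene complex, by distance in kb from the start of Klrb1c (horizontal axis). Red points were called higher in iNKT1, blue in iNKT2p and grey were not called by limma. The genes from Gabarapl1 to Klra1 are all red, whereas the Klrb1 and Clec2 end of the region is mixed.

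Promoters are shown for genes that were high together, 5 of iNKT1 and 1 of iNKT2p cells, each with the short motifs that were found in it. Only promoters with a match are shown, and not all of those, since Klra7 and Fgl2 also held matches. None of the motifs searched was found for Kcnj8, Hopx, Prf1 and Tjp1 of iNKT1 cells. The same was true of Il23r, Il1r1, Dnah9 and Sptb of iNKT2p cells. They run from 250 bases before to 50 bases after the annotated start, in the direction of the gene, as given by RefSeq for GRCm38.p6 (the assembly of mm10). Capitals mark the matches. In the promoter of Gzmb, chr14:56262285-56262584 (minus strand), they are a RUNX motif and a STAT motif. That of Klrk1, chr6:129623815-129624114 (minus strand), and that of Ncr1, chr7:4337465-4337764 (plus strand), hold a RUNX motif. The promoter of Ifng, chr10:118440796-118441095 (plus strand), holds a STAT motif at its upstream end, and that of Nkg7, chr7:43436888-43437187 (plus strand), a STAT motif and a T-box motif 14 bases before the start. Il6ra, chr3:89913147-89913446 (minus strand), has a GATA motif on the opposite strand.
Gzmb: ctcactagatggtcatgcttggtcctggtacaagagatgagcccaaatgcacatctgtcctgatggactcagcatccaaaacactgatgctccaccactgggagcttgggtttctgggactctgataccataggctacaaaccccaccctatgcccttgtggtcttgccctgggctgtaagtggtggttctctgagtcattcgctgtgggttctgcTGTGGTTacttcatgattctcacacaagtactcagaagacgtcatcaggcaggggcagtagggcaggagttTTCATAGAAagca
Klrk1: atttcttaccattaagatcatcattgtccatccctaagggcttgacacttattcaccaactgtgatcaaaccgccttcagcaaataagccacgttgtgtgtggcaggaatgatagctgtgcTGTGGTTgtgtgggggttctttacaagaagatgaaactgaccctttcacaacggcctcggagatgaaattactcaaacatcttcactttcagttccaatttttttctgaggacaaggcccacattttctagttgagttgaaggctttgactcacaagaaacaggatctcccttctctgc
Ncr1: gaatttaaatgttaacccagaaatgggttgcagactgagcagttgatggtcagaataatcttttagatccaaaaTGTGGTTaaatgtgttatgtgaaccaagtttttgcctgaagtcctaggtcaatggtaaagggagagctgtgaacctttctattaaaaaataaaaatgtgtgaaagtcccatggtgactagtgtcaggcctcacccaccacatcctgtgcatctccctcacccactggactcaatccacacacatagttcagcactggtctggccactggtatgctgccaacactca
Ifng: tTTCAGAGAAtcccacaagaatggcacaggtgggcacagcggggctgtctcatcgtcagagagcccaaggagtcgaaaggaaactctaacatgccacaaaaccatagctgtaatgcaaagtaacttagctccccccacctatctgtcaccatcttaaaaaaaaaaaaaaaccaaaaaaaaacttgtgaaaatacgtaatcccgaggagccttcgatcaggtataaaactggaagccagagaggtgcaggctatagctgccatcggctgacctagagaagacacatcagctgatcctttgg
Nkg7: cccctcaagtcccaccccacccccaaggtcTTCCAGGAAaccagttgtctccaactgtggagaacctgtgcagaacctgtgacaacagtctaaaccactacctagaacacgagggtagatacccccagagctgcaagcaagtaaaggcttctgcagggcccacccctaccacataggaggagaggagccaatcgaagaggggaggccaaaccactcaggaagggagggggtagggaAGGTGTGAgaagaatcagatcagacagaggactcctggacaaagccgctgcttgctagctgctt
Il6ra: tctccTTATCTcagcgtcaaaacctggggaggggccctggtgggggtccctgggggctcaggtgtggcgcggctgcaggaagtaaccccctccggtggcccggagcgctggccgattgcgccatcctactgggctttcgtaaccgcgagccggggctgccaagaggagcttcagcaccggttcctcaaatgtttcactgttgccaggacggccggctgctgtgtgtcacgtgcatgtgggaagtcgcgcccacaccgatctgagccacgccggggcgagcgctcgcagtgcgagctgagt

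Motifs were searched as TGTGGTT for RUNX factors, TTCNNNGAA for STAT, AGATAA for GATA, AGGTGTGA for T-box, ATCAAAG for TCF/LEF and GCGTGGGCG for EGR factors, on both strands, and the printed matches do not overlap each other. RefSeq promoters were matched by symbol for 8189 of the 10761 genes, for 231 of the 341 genes higher in iNKT1 and for 388 of the 518 genes higher in iNKT2p cells by at least 2 log2 units. For 1678 genes with more than 1 promoter entry, the first by position on the chromosome was used, whichever start the cells use. The RUNX motif was in 3.77% of all promoters, in 9.09% of those higher in iNKT1 and in 4.38% of those higher in iNKT2p cells. For the STAT motif these shares were 7.12%, 11.7% and 3.61%, and for the GATA motif 5.95%, 8.66% and 6.19%. The T-box motif was in 0.733%, 1.73% and 0.515%, the TCF/LEF motif in 2.43%, 2.60% and 2.06%, and the EGR motif in 1.17%, 0.433% and 2.06%. Shares of the rarer motifs rest on 1 to 8 promoters in each called group. A match of letters is a description and no binding site.

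Of the 24 tested genes of cytotoxic granules and target cell killing, with the granule proteins above among them, 13 were called higher in iNKT1 cells, 4 were called higher in iNKT2p cells and 7 were not called (29 genes of the list were in the table). Gzma, granzyme A, was at 297 and 265 in iNKT1 and 1.42 and 5.39 in iNKT2p cells (log2 difference 6.16, standard error 0.97, limma adjusted p = 0.000947). Fasl, the ligand of the death receptor FAS, was at 844 and 878 in iNKT1 and 34.1 and 24.8 in iNKT2p cells (log2 difference 4.84, standard error 0.60, limma adjusted p = 0.000164), while Fas itself was at 47.1 and 39.9 in iNKT1 and 165 and 189.6 in iNKT2p cells (limma adjusted p = 0.00399). Ligand and receptor were thus separated in opposite directions. Granzymes D to G and K had 0 reads in all 4 libraries. The 4 genes higher in iNKT2p cells were the lysosomal proteases Ctsl and Ctsb, the protease inhibitor Cst7 and the lysosomal membrane protein Lamp2, of which 2 were called without any single one of the 4 libraries. Ctsl was at 157 and 145 in iNKT1 and 689 and 746 in iNKT2p cells (log2 difference −2.24, standard error 0.26, limma adjusted p = 9.43e-05).

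Of the 14 iNKT2 markers, all passed the filter, 13 were called higher in iNKT2p cells and 1, Gata3, was not, with a median log2 difference of −3.01. This count is no independent check either, since the paper names Ccr7, Il6ra and Slamf6 as signatures and proposes Nrp2 as a marker from these same libraries. Il6ra, the receptor of IL-6, was at 0.748 and 2.57 in iNKT1 and 1427 and 1505 in iNKT2p cells, a ratio of 1027-fold (95% exact interval 351 to 4985) in favour of iNKT2p cells (log2 difference −9.20, standard error 0.53, limma adjusted p = 7.27e-07). Il17rb, the receptor of IL-25, was at 1.50 and 1.29 in iNKT1 and 345 and 438 in iNKT2p cells (log2 difference −7.35, standard error 1.01, limma adjusted p = 0.000365). Both were nearly absent from iNKT1 libraries, with 3 reads each. Zbtb16, which encodes PLZF, was at 1387 and 1242 in iNKT1 and 5882 and 5310.1 in iNKT2p cells (log2 difference −2.09, standard error 0.24, limma adjusted p = 9.69e-05). Gata3, the main factor of type 2 helper cells, was at 1333 and 1444 in iNKT1 and 1180.3 and 1287 in iNKT2p cells and was not called (log2 difference 0.17, standard error 0.22, limma adjusted p = 0.723), although the values did not overlap. The effector cytokines were low. Il4 was at 5.98 and 6.44 in iNKT1 and 116 and 136 in iNKT2p cells (log2 difference −4.13, standard error 0.56, limma adjusted p = 0.000324), and Il13 at 2.24 and 0 in iNKT1 and 50.4 and 68.9 in iNKT2p cells (log2 difference −5.06, standard error 1.09, limma adjusted p = 0.00727), a call that was lost without iNKT1 library 2 or iNKT2p library 2 (adjusted p = 0.0824 and 0.0670).

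Homing receptors were divided between the sorts. Ccr7, which guides cells to lymphoid tissue and the thymic medulla, was at 8.98 and 0 in iNKT1 and 461 and 444 in iNKT2p cells (log2 difference −7.17, standard error 0.89, limma adjusted p = 0.000176). Ccr4, a receptor of type 2 cells and medullary thymocytes, was at 32.2 and 47.6 in iNKT1 and 3202 and 2683 in iNKT2p cells (log2 difference −6.19, standard error 0.29, limma adjusted p = 2.31e-07). Both stood in iNKT2p cells with the gut and thymus receptor Ccr9, at 94.2 and 94.0 in iNKT1 and 703 and 723 in iNKT2p cells (log2 difference −2.91, standard error 0.44, limma adjusted p = 0.000725). In iNKT1 cells, Cxcr3, a receptor for chemokines induced by interferon-γ, was at 1401 and 1233 against 115 and 74.3 (log2 difference 3.81, standard error 0.63, limma adjusted p = 0.00128). Cxcr6, which holds cells in tissues, was abundant in both sorts, at 4872 and 4667 in iNKT1 and 1694 and 1684 in iNKT2p cells (log2 difference 1.50, standard error 0.19, limma adjusted p = 0.000187). In all, 9 of the 23 tested homing receptors were called higher in iNKT1 cells, 6 higher in iNKT2p cells and 8 were not called. Klf2, a transcription factor of thymic egress, was at 2544 and 2922 in iNKT1 and 114 and 167 in iNKT2p cells (log2 difference 4.30, standard error 0.20, limma adjusted p = 2.31e-07). Its target S1pr1, the exit receptor for sphingosine-1-phosphate, was at 233 and 242 in iNKT1 and 97.9 and 162 in iNKT2p cells and was not called (limma adjusted p = 0.172).

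Of 26 transcription factors of early and type 2 T cells, all tested, 16 were called higher in iNKT2p cells, 1 (Klf2) higher in iNKT1 cells and 9 were not called, with a median log2 difference of −1.35. Id3, an inhibitor of E proteins downstream of the T cell receptor, was at 23.2 and 21.9 in iNKT1 and 688 and 427 in iNKT2p cells (log2 difference −4.53, standard error 0.33, limma adjusted p = 3.47e-06). Myb, a factor of thymocyte development, was at 161 and 106 in iNKT1 and 1454 and 1534 in iNKT2p cells (log2 difference −3.51, standard error 0.22, limma adjusted p = 1.44e-06). Sox4, another early factor, was at 67.3 and 59.2 in iNKT1 and 574 and 632 in iNKT2p cells (log2 difference −3.23, standard error 0.26, limma adjusted p = 7e-06). The iNKT1 values of these 3 genes were a small fraction of the iNKT2p values in each library. Lef1 was at 863 and 1036 in iNKT1 and 3866 and 4188 in iNKT2p cells (log2 difference −2.09, standard error 0.25, limma adjusted p = 0.000121), and Tox, needed for development of CD4 T cells, at 120.4 and 135 in iNKT1 and 1021 and 1178 in iNKT2p cells (log2 difference −3.09, standard error 0.22, limma adjusted p = 2.49e-06). Egr1 and Egr2, immediate early factors induced by the T cell receptor, were at 313 and 287 in iNKT1 and 1288 and 1479 in iNKT2p cells and at 142 and 131 in iNKT1 and 436 and 385 in iNKT2p cells (limma adjusted p = 0.00257 and 0.00216). Nr4a1, which encodes NUR77 of the same response, was at 18.0 and 43.8 in iNKT1 and 287 and 207 in iNKT2p cells (log2 difference −3.07, standard error 0.67, limma adjusted p = 0.00801), a call that was lost without iNKT1 library 1 or iNKT2p library 1 (adjusted p = 0.0915 and 0.0705). Of the 24 tested immediate early and heat shock genes, 4 were called higher in iNKT2p cells, namely these 3 and Egr3, 4 were called higher in iNKT1 cells (Fosl2, Ier2, Ier3 and Btg2) and 16 were not called. Without iNKT1 library 1 or iNKT2p library 2, 1 was called higher in iNKT1 cells, and 2 without iNKT1 library 2, and without iNKT2p library 1, 2 were called higher in iNKT2p cells. Among those not called were Fos, Fosb, Jun and Junb.

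Genes of double-positive thymocytes lay on the side of iNKT2p cells. Of 19 tested, 13 were called higher in iNKT2p cells, none in iNKT1 cells and 6 were not called, with a median log2 difference of −2.16. Rag1 and Rag2, the recombinases of receptor gene assembly, were at 782 and 792 in iNKT1 and 3371 and 3424 in iNKT2p cells and at 12.7 and 10.3 in iNKT1 and 108 and 111 in iNKT2p cells. Their values did not overlap between the sorts, and both were called (log2 difference −2.11, standard error 0.38, limma adjusted p = 0.00222 for Rag1; limma adjusted p = 0.000519 for Rag2). Themis, a signalling protein of positive selection, was at 108 and 136 in iNKT1 and 889 and 1182 in iNKT2p cells (log2 difference −3.06, standard error 0.25, limma adjusted p = 7.2e-06). Nrgn, the calmodulin-binding protein neurogranin, was at 7.48 and 5.15 in iNKT1 and 320.1 and 450.3 in iNKT2p cells (log2 difference −5.72, standard error 0.47, limma adjusted p = 7.63e-06). Cd8a was at 197 and 205 in iNKT1 and 732 and 702 in iNKT2p cells (log2 difference −1.83, standard error 0.33, limma adjusted p = 0.00247). Mns1, a protein of sperm flagella, was at 14.2 and 2.57 in iNKT1 and 65.3 and 86.2 in iNKT2p cells (limma adjusted p = 0.0239), a call that was lost without iNKT1 library 2, iNKT2p library 1 or iNKT2p library 2 (adjusted p = 0.237, 0.0886 and 0.151). Whether such transcripts came from iNKT cells or from thymocytes in the sort was not tested. Ptcra, the pre-T cell receptor chain of earlier thymocytes, was at 4.49 and 0 in iNKT1 and 2.84 and 0 in iNKT2p cells.

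Genes of mitosis were low in both sorts and stood higher in iNKT2p cells in part. All 27 tested genes of G2 and mitosis had a negative log2 difference, with a median of −1.33, of which 9 were called. The latter count was 3 without iNKT1 library 1 or iNKT2p library 2, 4 without iNKT2p library 1 and 5 without iNKT1 library 2. Nusap1, a spindle protein, was at 21.7 and 6.44 in iNKT1 and 81.6 and 117 in iNKT2p cells (log2 difference −2.93, standard error 0.54, limma adjusted p = 0.00271). Ccnb2, cyclin B2, was at 11.97 and 15.4 in iNKT1 and 58.2 and 108 in iNKT2p cells (log2 difference −2.46, standard error 0.50, limma adjusted p = 0.00535), a call that was lost without iNKT2p library 2 (adjusted p = 0.0709). Top2a and Mki67, the most used marks of cycling cells, were at 136 and 163 in iNKT1 and 545 and 507 in iNKT2p cells and at 65.8 and 87.5 in iNKT1 and 294 and 228 in iNKT2p cells (limma adjusted p = 0.0423 and 0.00459). The call of Top2a was lost without any single one of the 4 libraries (adjusted p = 0.143 to 0.203) and without either young iNKT2 library (adjusted p = 0.0537 and 0.0541), and that of Mki67 without iNKT1 library 1 or iNKT2p library 1 (adjusted p = 0.0526 and 0.0512). S phase genes were not on 1 side, with 2 of 27 called higher in iNKT1 cells, 3 higher in iNKT2p cells and 22 not called, and a median of −0.03. Without iNKT1 library 2 or either iNKT2p library, 1 and 0 were called, and the 3 genes higher in iNKT2p cells became 1 without either young iNKT2 library. Pcna, the sliding clamp of DNA replication, was at 456 and 526 in iNKT1 and 429 and 439.5 in iNKT2p cells and was not called (limma adjusted p = 0.704).

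Replication-dependent histone genes, whose mRNA lacks a poly(A) tail and was taken up by the total RNA kit, gave 11 of 48 tested members higher in iNKT2p cells, none higher in iNKT1 cells and 37 not called. The 11 calls fell to 2 without iNKT1 library 1, to 1 without iNKT1 library 2 and to 4 without either iNKT2p library. Hist1h2af was at 66.6 and 85.0 in iNKT1 and 239 and 311 in iNKT2p cells (log2 difference −1.85, standard error 0.26, limma adjusted p = 0.000388), and Hist1h4f at 48.6 and 37.3 in iNKT1 and 136 and 154 in iNKT2p cells (log2 difference −1.74, standard error 0.37, limma adjusted p = 0.00669). The latter call was lost without iNKT1 library 2 or iNKT2p library 2 (adjusted p = 0.0705 and 0.0621). The more abundant linker histone Hist1h1c was at 5442 and 5172 in iNKT1 and 4029 and 4093 in iNKT2p cells and was not called (limma adjusted p = 0.462). Histone genes are close copies, so reads can be split between them.

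The further genes among the 15 largest differences in favour of iNKT2p cells had diverse known roles. Dnah9, a heavy chain of the dynein of cilia, was at 1.50 and 1.29 in iNKT1 and 751 and 699 in iNKT2p cells (log2 difference −8.25, standard error 0.79, limma adjusted p = 2.37e-05). Sptb, β-spectrin of the membrane skeleton, was at 0.748 and 1.29 in iNKT1 and 645 and 516 in iNKT2p cells (log2 difference −8.18, standard error 0.82, limma adjusted p = 3.6e-05). Tln2, which links integrins to actin, was at 2.24 and 0 in iNKT1 and 416 and 309 in iNKT2p cells (log2 difference −7.64, standard error 0.84, limma adjusted p = 6.93e-05). Each had 2 or 3 reads in iNKT1 cells. Clstn3, a cadherin-related membrane protein, was at 1.50 and 1.29 in iNKT1 and 668 and 1036 in iNKT2p cells (log2 difference −8.45, standard error 0.52, limma adjusted p = 1.1e-06). Hey1, a repressor induced by Notch, was at 0 and 0 in iNKT1 and 251 and 179 in iNKT2p cells, at least 152-fold higher in iNKT2p cells (limma adjusted p = 2.03e-06). Khdrbs3, an RNA-binding protein, was at 0 and 0 in iNKT1 and 237 and 255 in iNKT2p cells, at least 173-fold higher (limma adjusted p = 1.16e-05). Reads of the latter 2 genes were absent from both iNKT1 libraries. Kcnf1, a modulatory subunit of potassium channels, was at 0 and 1.29 in iNKT1 and 291 and 345 in iNKT2p cells (log2 difference −7.71, standard error 0.68, limma adjusted p = 1.44e-05), and Shtn1, shootin of growing axons, at 0.748 and 0 in iNKT1 and 297 and 249.9 in iNKT2p cells (log2 difference −7.69, standard error 0.53, limma adjusted p = 2.16e-06). The unnamed transcript 4930452B06Rik was at 0 and 0 in iNKT1 and 285 and 243 in iNKT2p cells, at least 186-fold higher in iNKT2p cells (limma adjusted p = 0.000357).

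The remaining 5 of these 15 genes were, like Kcnf1, higher still in aged iNKT17 cells. Blk, a SRC family kinase, was at 1.50 and 0 in iNKT1 and 504 and 526 in iNKT2p cells, and at 6623 and 7185 in aged iNKT17 cells. Il23r, the receptor of IL-23, was at 0 and 0 in iNKT1 and 480.5 and 607 in iNKT2p cells, and at 4889 and 5159 in iNKT17 cells. Il1r1, the IL-1 receptor, was at 0 and 0 in iNKT1 and 367 and 534 in iNKT2p cells, and at 3423 and 3183 in iNKT17 cells. In all 3 the order of the sorts was iNKT1, iNKT2p, iNKT17, with no overlap. Sdc1, the proteoglycan syndecan-1, was at 4.49 and 0 in iNKT1 and 532 and 539.7 in iNKT2p cells and 4508 and 5057 in iNKT17 cells, and Mmp25, a matrix metalloproteinase of the cell surface, at 0.748 and 0 in iNKT1 and 403 and 422 in iNKT2p cells and 3513 and 3927. Of 16 tested iNKT17 markers, 15 were called higher in iNKT2p cells, and 1, the IL-7 receptor Il7r, higher in iNKT1 cells, a call that was lost without any single one of the 4 libraries. With the iNKT17 share taken out as described next, 9 of the 16 were called higher in iNKT2p cells. The median log2 difference of the 16 was −4.91. Il17a and Il17f had 0 reads in all 4 libraries.

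An estimate of the iNKT17 share of the sorts was made from 116 genes that were called higher in young iNKT17 cells than in both other young sorts, by at least 2 log2 units, as the median of their excess over the young cells of the same sort, relative to that of aged iNKT17 cells. It was 8.57% and 11.2% in the iNKT2p libraries and 0% in both iNKT1 libraries. Of the 886 genes higher in iNKT2p cells, 62 had an aged iNKT17 mean of at least 5 times their iNKT2p mean, and 591 had an iNKT17 mean below it. When the estimated share was taken out of the iNKT2p values, 837 genes were called higher in iNKT2p cells and 850 higher in iNKT1 cells. Of the 886 genes, 78 were then no longer called, of which 39 belonged to the 62. The log2 difference of Blk then became 0.66 (limma adjusted p = 0.668), that of Mmp25 −4.37 (limma adjusted p = 0.0119) and that of Sdc1 −3.66 (limma adjusted p = 0.0421). Values that the subtraction took below 0 were set to 0, as was the case for Blk in both iNKT2p libraries. Il23r and Il1r1 kept their calls, at −5.74 (limma adjusted p = 8.31e-07) and −7.04 (limma adjusted p = 3.5e-06). These kept calls follow in part from the method, since the share was set as an excess over young iNKT2 cells. There Il23r was at 76.6 and 72.0 and Il1r1 at 76.6 and 87.2, whereas the aged iNKT1 libraries had 0 reads of both. By contrast, Il6ra (91.2 and 81.6 in iNKT17 cells), Ccr7 (32.4 and 74.8) and Dnah9 (2.49 and 6.80) were lower in iNKT17 than in iNKT2p cells. On re-analysis of the sorted cells, the paper found this sort contaminated by iNKT17 cells. By flow cytometry it also found other cells within the gate that made IL-17 when stimulated. Further cells of the gate had TBET, at a lower level than iNKT1 cells, and made interferon-γ when stimulated. For the genes that were higher in iNKT17 cells, cells of this gate that make the transcripts of their own cannot be told apart here from sorted-in iNKT17 cells.

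**Figure D3:**
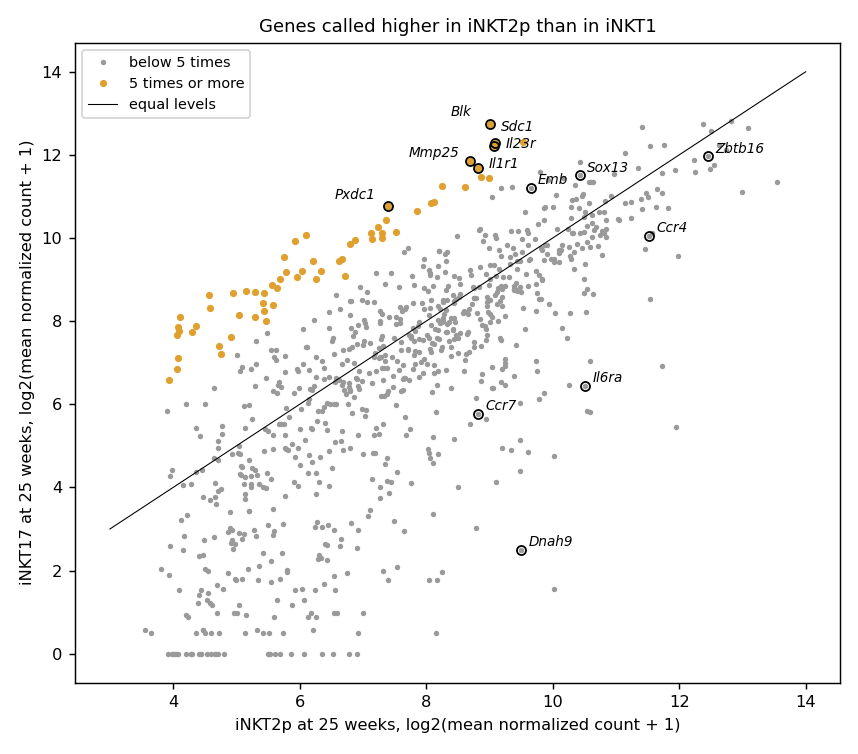
Mean level in aged iNKT17 cells (vertical axis) against that in iNKT2p cells (horizontal axis), both as log2(mean normalized count + 1), for the 886 genes called higher in iNKT2p than in iNKT1 cells. Yellow points are the 62 genes with an iNKT17 mean of 5 times the iNKT2p mean or more, the line marks equal levels, and labelled genes are circled. Blk, Sdc1, Il23r, Mmp25 and Il1r1 are among the yellow points, while Il6ra, Ccr7, Ccr4 and Dnah9 lie below the line.

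Cytokine receptors differed in both directions. Of 35 tested, 12 were called higher in iNKT1 cells (the sort gene Il2rb included), 10 higher in iNKT2p cells and 13 were not called. The 12 genes became 7 without iNKT1 library 1 or iNKT2p library 2. Il18rap, the signalling chain of the IL-18 receptor, was at 3083 and 3019.7 in iNKT1 and 336 and 311 in iNKT2p cells (log2 difference 3.23, standard error 0.19, limma adjusted p = 9.45e-07). Il10ra was at 727 and 752 in iNKT1 and 12.8 and 18.3 in iNKT2p cells (log2 difference 5.50, standard error 0.49, limma adjusted p = 1.47e-05), and Il4ra at 1279.7 and 1233 in iNKT1 and 438 and 319 in iNKT2p cells (log2 difference 1.75, standard error 0.23, limma adjusted p = 0.00027). The chains of the interferon-γ receptor went in opposite directions. Ifngr1, the binding chain, was at 3722 and 3578 in iNKT1 and 675 and 752 in iNKT2p cells (log2 difference 2.36, standard error 0.25, limma adjusted p = 5.38e-05), whereas Ifngr2, the signalling chain, was at 3.74 and 0 in iNKT1 and 328 and 313 in iNKT2p cells (log2 difference −7.21, standard error 0.62, limma adjusted p = 1.09e-05). Il2rg, the shared γ chain, was at 3745 and 4252 in iNKT1 and 3174 and 3607 in iNKT2p cells and was not called (limma adjusted p = 0.715). Il2ra, the high-affinity chain of the IL-2 receptor, was at 87.5 and 85.0 in iNKT1 and 281 and 275 in iNKT2p cells and 1842 and 1871 in iNKT17 cells (log2 difference −1.68, standard error 0.48, limma adjusted p = 0.0359). Its call was lost without any single one of the 4 libraries (adjusted p = 0.141 to 0.168) and with the iNKT17 share taken out, at −0.22 (limma adjusted p = 0.862). Among JAK, STAT and SOCS genes, 19 of 24 were not called, with 2 called higher in iNKT1 and 3 higher in iNKT2p cells. Without 1 library, both counts ranged from 1 to 4, with 1 in each direction without iNKT1 library 2 or iNKT2p library 1 and 4 in each without either young iNKT1 library. Besides Stat4, the feedback inhibitor Socs2 was higher in iNKT1 cells, at 80.8 and 68.2 in iNKT1 and 4.97 and 22.6 in iNKT2p cells (log2 difference 2.66, standard error 0.61, limma adjusted p = 0.0105), a call that was lost without iNKT1 library 1, iNKT1 library 2 or iNKT2p library 1 (adjusted p = 0.0794, 0.0604 and 0.0779). Stat5b, which passes on signals of IL-2 and IL-15, was higher in iNKT2p cells, at 851 and 786 in iNKT1 and 1805 and 1869 in iNKT2p cells (log2 difference −1.17, standard error 0.15, limma adjusted p = 0.000237).

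The survival genes of the BCL2 family were divided by member. Bcl2, which blocks apoptosis, was at 1749 and 1812 in iNKT1 and 126 and 164 in iNKT2p cells (log2 difference 3.62, standard error 0.21, limma adjusted p = 8.25e-07). Its BH3-only opponents that were also higher in iNKT1 cells were Bcl2l11, which encodes BIM, at 640.2 and 768 in iNKT1 and 142 and 179 in iNKT2p cells (log2 difference 2.13, standard error 0.22, limma adjusted p = 4.91e-05), and Bbc3, which encodes PUMA, at 208 and 249.7 in iNKT1 and 50.4 and 75.4 in iNKT2p cells (log2 difference 1.87, standard error 0.34, limma adjusted p = 0.00248). Bcl2a1a was at 1.50 and 1.29 in iNKT1 and 52.5 and 77.6 in iNKT2p cells (log2 difference −4.76, standard error 1.10, limma adjusted p = 0.0110), a call lost without any single one of the 4 libraries (adjusted p = 0.0519 to 0.0913), and its reads may be shared with close copies. Mcl1, the survival factor common to lymphocytes, was at 2888 and 2322 in iNKT1 and 2246 and 1868 in iNKT2p cells and was not called (limma adjusted p = 0.324). Of the 18 tested members, 3 were called in each direction and 12 were not, and those higher in iNKT2p cells became 1 without either iNKT1 library and 0 without iNKT2p library 2.

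Integrins and adhesion molecules gave 10 of 27 tested genes higher in iNKT1, 6 higher in iNKT2p cells and 11 not called. Itga1, the α1 chain of a collagen receptor of tissue-resident cells, was at 3119 and 2895 in iNKT1 and 13.5 and 19.4 in iNKT2p cells (log2 difference 7.45, standard error 0.71, limma adjusted p = 2.43e-05). Its partner chain Itgb1 was at 4351 and 3799.8 in iNKT1 and 927 and 926 in iNKT2p cells (log2 difference 2.13, standard error 0.15, limma adjusted p = 3.2e-06). Cdh1, E-cadherin, was at 3389 and 3231 in iNKT1 and 366 and 302 in iNKT2p cells (log2 difference 3.31, standard error 0.67, limma adjusted p = 0.00503), a call that was lost without iNKT2p library 2 (adjusted p = 0.0518). In these genes iNKT1 cells were higher in both libraries. Itgb3, the β3 integrin chain, was at 119.7 and 129 in iNKT1 and 2811 and 1692 in iNKT2p cells (log2 difference −4.12, standard error 0.25, limma adjusted p = 9.45e-07), and Nrp2, a receptor for semaphorins, at 100.2 and 143 in iNKT1 and 899 and 1171 in iNKT2p cells (log2 difference −3.09, standard error 0.60, limma adjusted p = 0.00367). SLAM receptors, through which iNKT cells are selected, were also split. Slamf7 was at 1568 and 1672 in iNKT1 and 10.6 and 11.9 in iNKT2p cells (log2 difference 7.05, standard error 0.57, limma adjusted p = 7.3e-06) and Slamf6 at 96.5 and 78.5 in iNKT1 and 648 and 689 in iNKT2p cells (log2 difference −2.93, standard error 0.19, limma adjusted p = 1.48e-06). Of 9 tested SLAM receptors and adaptors, 4 were called in each direction, and Fyn was not called.

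Most genes of the T cell receptor complex and its proximal signalling were not called, namely 26 of 42, with 6 called higher in iNKT1 and 10 higher in iNKT2p cells, the sort gene Cd4 among the 10. The 10 genes became 5 without iNKT1 library 1 and 6 without iNKT2p library 2. Cd3e was at 6316 and 6966 in iNKT1 and 5862 and 6949.8 in iNKT2p cells (limma adjusted p = 0.942). Cd247, the ζ chain of the same complex, was at 1081 and 1206 in iNKT1 and 7238 and 5416 in iNKT2p cells (log2 difference −2.45, standard error 0.18, limma adjusted p = 3.02e-06). Among the genes higher in iNKT1 cells were Malt1, a protease of NF-κB signalling (1392 and 1465 in iNKT1 and 234 and 395 in iNKT2p cells; log2 difference 2.23, standard error 0.24, limma adjusted p = 6.85e-05), and the phosphatase Ptpn22 (1938 and 1993 in iNKT1 and 398 and 622 in iNKT2p cells; log2 difference 1.98, standard error 0.20, limma adjusted p = 3.23e-05). Pik3ap1, the adaptor BCAP of phosphoinositide 3-kinase, was at 879 and 871 in iNKT1 and 57.5 and 64.6 in iNKT2p cells (log2 difference 3.82, standard error 0.47, limma adjusted p = 0.000165).

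Of 30 tested costimulatory and inhibitory receptors, 8 were called in each direction and 14 were not, and those higher in iNKT1 cells became 5 without either iNKT1 library. Cd7, an immunoglobulin-like receptor of T and NK cells, was at 2586 and 2699 in iNKT1 and 141 and 92.6 in iNKT2p cells (log2 difference 4.52, standard error 0.22, limma adjusted p = 2.31e-07), and Cd101, another one with inhibitory motifs, at 605 and 570.2 in iNKT1 and 35.5 and 58.2 in iNKT2p cells (log2 difference 3.66, standard error 0.37, limma adjusted p = 3.65e-05). Pdcd1, which encodes the inhibitory receptor PD-1, was at 41.9 and 30.9 in iNKT1 and 900.0 and 839 in iNKT2p cells (log2 difference −4.56, standard error 0.25, limma adjusted p = 6.1e-07). Tnfsf11, the ligand RANKL that acts on medullary epithelium, was at 3.74 and 1.29 in iNKT1 and 183 and 225 in iNKT2p cells (log2 difference −5.95, standard error 0.48, limma adjusted p = 7e-06). Cd200, a ligand of an inhibitory receptor, was at 0.748 and 0 in iNKT1 and 83.0 and 71.1 in iNKT2p cells (log2 difference −5.88, standard error 0.76, limma adjusted p = 0.000238). Only Cd7 and Cd101 of these genes were higher in iNKT1 cells. Lag3, also inhibitory, was at 4.49 and 27.0 in iNKT1 and 111 and 113 in iNKT2p cells and was not called (limma adjusted p = 0.0832).

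Genes of TGF-β signalling were not called in 13 of 18 cases. Furin, a protease that activates TGF-β, was at 1700.1 and 1861 in iNKT1 and 336 and 392.1 in iNKT2p cells (log2 difference 2.29, standard error 0.43, limma adjusted p = 0.00304). Smad7, an inhibitor of the pathway, was at 1471 and 1700.4 in iNKT1 and 731 and 608 in iNKT2p cells (log2 difference 1.25, standard error 0.24, limma adjusted p = 0.00363), whereas the inhibitor Smad6 was at 0 and 0 in iNKT1 and 119 and 43.1 in iNKT2p cells, at least 56.9-fold higher in iNKT2p cells (limma adjusted p = 0.00378). The call of Smad6 was lost without iNKT2p library 1 (adjusted p = 0.0507) and in DESeq2 (adjusted p = 0.114). Tgfbr3, the coreceptor betaglycan, was at 193 and 188 in iNKT1 and 1454 and 1488 in iNKT2p cells (log2 difference −2.94, standard error 0.35, limma adjusted p = 0.000116). Interferon response genes were not called in 33 of 39 cases, with a median log2 difference of 0.05. Apart from the Ifitm genes, Irf7 was called higher in iNKT1 cells, at 568 and 608 in iNKT1 and 312 and 231 in iNKT2p cells (log2 difference 1.13, standard error 0.23, limma adjusted p = 0.00514), a call lost without iNKT1 library 2 or iNKT2p library 2 (adjusted p = 0.0534 and 0.0687). Iigp1, a GTPase induced by interferon-γ, was called higher in iNKT2p cells, at 26.9 and 43.8 in iNKT1 and 335 and 277 in iNKT2p cells (log2 difference −3.11, standard error 0.52, limma adjusted p = 0.00151). Of the glycolysis genes, 16 of 21 were not called, 2 were called higher in iNKT1 and 3 higher in iNKT2p cells. Those counts were 1 and 0 without iNKT1 library 2 or iNKT2p library 2, 1 and 1 without iNKT1 library 1, and 5 were called higher in iNKT2p cells without either young iNKT1 library. The glucose transporter Slc2a3 was at 929 and 828 in iNKT1 and 251 and 277 in iNKT2p cells (log2 difference 1.73, standard error 0.21, limma adjusted p = 0.000159), and Ldhb, a subunit of lactate dehydrogenase, at 64.3 and 52.8 in iNKT1 and 199 and 198 in iNKT2p cells (log2 difference −1.75, standard error 0.38, limma adjusted p = 0.00754), a call that was lost without iNKT1 library 2 or iNKT2p library 2 (adjusted p = 0.0715 and 0.0547).

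**Figure D4:**
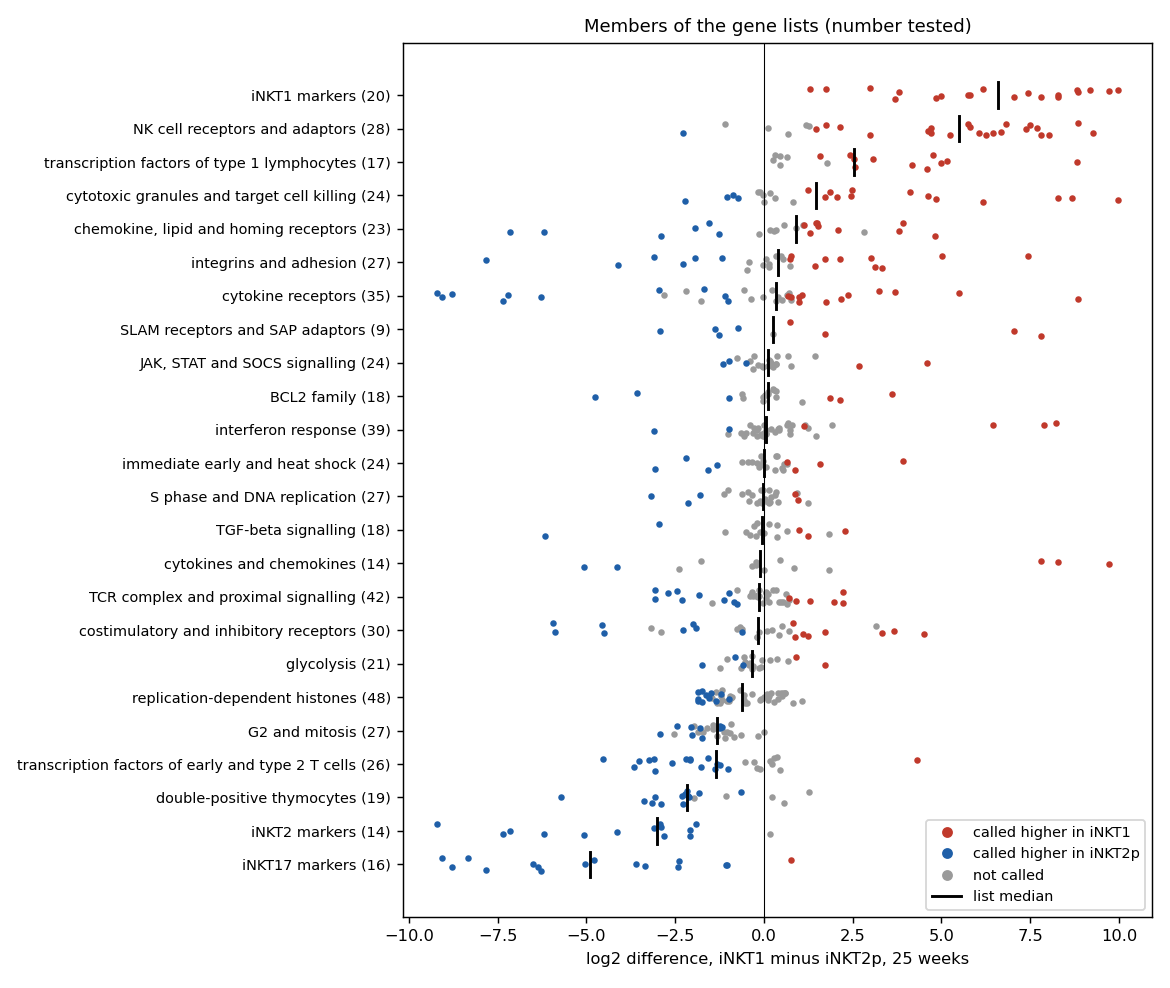
Log2 difference of iNKT1 minus iNKT2p at 25 weeks (horizontal axis) for the tested members of each gene list with at least 5 of them, with the number tested in brackets. Each point is a gene, red if called higher in iNKT1, blue if called higher in iNKT2p and grey if not called, and black bars are list medians. All iNKT1 markers and 26 of the 28 NK cell receptors and adaptors lie to the right of 0, and iNKT17 markers, iNKT2 markers, thymocyte genes and mitosis genes mostly to the left.

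Genes of other cell types were mostly absent. None of the 8 B cell genes passed the filter, and the list summed to 4.49 and 3.86 normalized counts in iNKT1 and 4.26 and 14.01 in iNKT2p cells. Of 20 myeloid and dendritic cell genes, 2 passed and both were called higher in iNKT2p cells, namely Cd74 at 2.99 and 0 in iNKT1 and 18.5 and 73.3 in iNKT2p cells and H2-Ab1 at 2.99 and 0 in iNKT1 and 17.0 and 40.9 in iNKT2p cells (limma adjusted p = 0.00862 and 0.00331). The call of Cd74 was lost without iNKT1 library 2 or iNKT2p library 2 (adjusted p = 0.0977 and 0.111). Summed over the list, levels were 16.5 and 21.9 in iNKT1 and 57.5 and 187 in iNKT2p cells. The defining genes Adgre1, Fcgr1 and Lyz1 were at 0 in the 4 libraries, and Lyz2 was at 1.50 and 1.29 in iNKT1 and 3.55 and 29.1 in iNKT2p cells. Among genes of regulatory T cells, 4 of 8 passed and all were called higher in iNKT2p cells, Ikzf4, Ikzf2, Nrp1 and Il2ra, of which 2 were called without iNKT1 library 1, iNKT1 library 2 or iNKT2p library 2, while Foxp3 was at 0 and 0 in iNKT1 and 2.13 and 0 in iNKT2p cells. Ikzf2, the factor HELIOS, was at 195 and 211 in iNKT1 and 1232 and 2345 in iNKT2p cells (log2 difference −3.06, standard error 0.27, limma adjusted p = 1.38e-05). Nrp1, a coreceptor for semaphorins, was at 233 and 180.2 in iNKT1 and 527 and 1192 in iNKT2p cells (log2 difference −1.95, standard error 0.56, limma adjusted p = 0.0357), a call that was lost without iNKT1 library 1, iNKT1 library 2 or iNKT2p library 2 (adjusted p = 0.108, 0.211 and 0.318). Both genes were higher in iNKT2p library 2 than in iNKT2p library 1. Pecam1 was the only endothelial gene that passed, at 125 and 143 in iNKT1 and 471 and 515 in iNKT2p cells (log2 difference −1.87, standard error 0.31, limma adjusted p = 0.00133), with Tek at 0 and Cdh5 with a single read. Sox13, a factor of γδ T cells, was at 12.7 and 15.4 in iNKT1 and 1483 and 1268 in iNKT2p cells and 2766 and 3074 in iNKT17 cells (log2 difference −6.51, standard error 0.49, limma adjusted p = 4.31e-06). The part of other cells in these results was not tested.

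The same comparison was made at 6 weeks with 4 other libraries, and the difference between both ages was tested in the same fit. The young iNKT1 libraries were made from 103000 and 105000 cells and the young iNKT2 libraries from 327000 and 315000. At 25 weeks the iNKT1 libraries had more cells than the iNKT2p libraries. The make-up of the iNKT2 gate also differed by age, since the paper found several populations in it in aged thymi. For this reason the paper limited its search for age effects to iNKT1 and iNKT17 cells. Its aged pools also held more mice than the young ones. Age, the reversal of cell number, the make-up of the gate and the pool size therefore cannot be told apart. limma called the difference between ages for 148 of the 10761 genes, or 1.38%. In 143 of them iNKT1 minus iNKT2p was more negative at 25 than at 6 weeks, 110 were called higher in iNKT2p cells at 25 weeks, and 109 had the opposite sign at 6 weeks. This count depended on single libraries. It was 90 without iNKT1 library 1, 68 without iNKT1 library 2, 68 without iNKT2p library 1, 51 without iNKT2p library 2 and 98 without young iNKT2 library 1, and it rose to 270 and 1051 without young iNKT1 library 2 and library 1. Young iNKT1 library 2 had 3590903 reads, the fewest of the 12 libraries. Of the lists, 19 of 48 histone genes, 12 of 19 genes of double-positive thymocytes, 9 of 27 genes of G2 and mitosis and 6 of 16 iNKT17 markers were among the 148, all with a more negative difference at 25 weeks. The counts of histone and thymocyte genes are no independent check, since the paper reports age changes of such genes in these same libraries. That of iNKT17 markers was made without taking the iNKT17 share out of the iNKT2p values.

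Ctsl showed the change of direction. It was at 1742 and 1282 in young iNKT1 and 241 and 228 in young iNKT2 cells, and at 157 and 145 in iNKT1 and 689 and 746 in iNKT2p cells of aged mice. iNKT1 cells were higher in young and lower in aged mice, without overlap at either age (difference of the log2 differences −4.90, standard error 0.36, limma adjusted p = 0.00014). Themis was at 981 and 999 in young iNKT1 and 541 and 452 in young iNKT2 cells, and turned in the same way (−4.06, standard error 0.35, limma adjusted p = 0.000238). So did Rag2, at 182 and 215 and 30.3 and 45.5 in young cells (−5.53, standard error 0.64, limma adjusted p = 0.00172), and Hist1h2af, at 2090.2 and 2500.1 and 416 and 284 (−4.57, standard error 0.36, limma adjusted p = 0.000156). Glcci1, induced by glucocorticoids in thymocytes, was at 1226 and 1253 in young iNKT1 and 476 and 458 in young iNKT2 cells, against 313 and 299.9 in iNKT1 and 859.5 and 735 in iNKT2p cells of aged mice (−2.78, standard error 0.21, limma adjusted p = 0.00014). For these 5 genes the young iNKT1 values were above the aged iNKT1 values. Emb, the adhesion molecule embigin, was lower in iNKT1 cells at both ages, at 105 and 141 against 597 and 499 in young and 18.0 and 15.4 against 906 and 702 in aged mice, and the gap was wider at 25 weeks (−3.35, standard error 0.29, limma adjusted p = 0.000238). In Il23r it widened through higher iNKT2p values, from 76.6 and 72.0 in young iNKT2 cells to 480.5 and 607, with 0 reads in the iNKT1 libraries of both ages (−2.84, standard error 0.39, limma adjusted p = 0.00416). With the iNKT17 share taken out, the difference of Il23r between ages was 0.50 (limma adjusted p = 0.735), and edgeR and DESeq2 did not call it.

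Few genes moved towards iNKT1 cells between the ages, 5 of the 148. Atp8b4, a lipid flippase of the P4 type, was at 911 and 740.2 in young iNKT1 and 746 and 772 in young iNKT2 cells, values that overlapped, and at 1503 and 1442 in iNKT1 and 712 and 594 in iNKT2p cells of aged mice, which did not overlap (1.06, standard error 0.23, limma adjusted p = 0.0455). Oas3, a sensor of double-stranded RNA, was higher in young iNKT2 cells, at 646 and 929 against 411 and 324, and at 895 and 833 in iNKT1 and 564 and 469 in iNKT2p cells of aged mice (1.83, standard error 0.40, limma adjusted p = 0.0499), where it was not called (limma adjusted p = 0.107). These calls for the difference between ages held in 8 and 6 of 19 alternatives, and were lost without any single one of the 4 aged libraries (adjusted p = 0.0746 to 0.238 for Atp8b4 and 0.124 to 0.249 for Oas3) and without either young iNKT2 library or young iNKT1 library 2. The other 3 were the small nucleolar RNA genes Snord49b, Snord34 and Snord68, at 141 and 260.0 in iNKT1 and 31.9 and 34.5 in iNKT2p cells, at 198 and 379.7 in iNKT1 and 32.6 and 34.5 in iNKT2p cells and at 131 and 241 in iNKT1 and 24.1 and 22.6 in iNKT2p cells. The calls of these 3 genes for the difference between ages were lost without iNKT1 library 2, either iNKT2p library or either young iNKT2 library. Those of Snord34 and Snord68 were also lost without iNKT1 library 1. None of the 3 showed iNKT1 values above those of iNKT2 cells in both young libraries. Of the 20 iNKT1 markers, 1 was called for the difference between ages, the NK receptor Klrb1c, and of the 14 iNKT2 markers none.

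**Figure D5:**
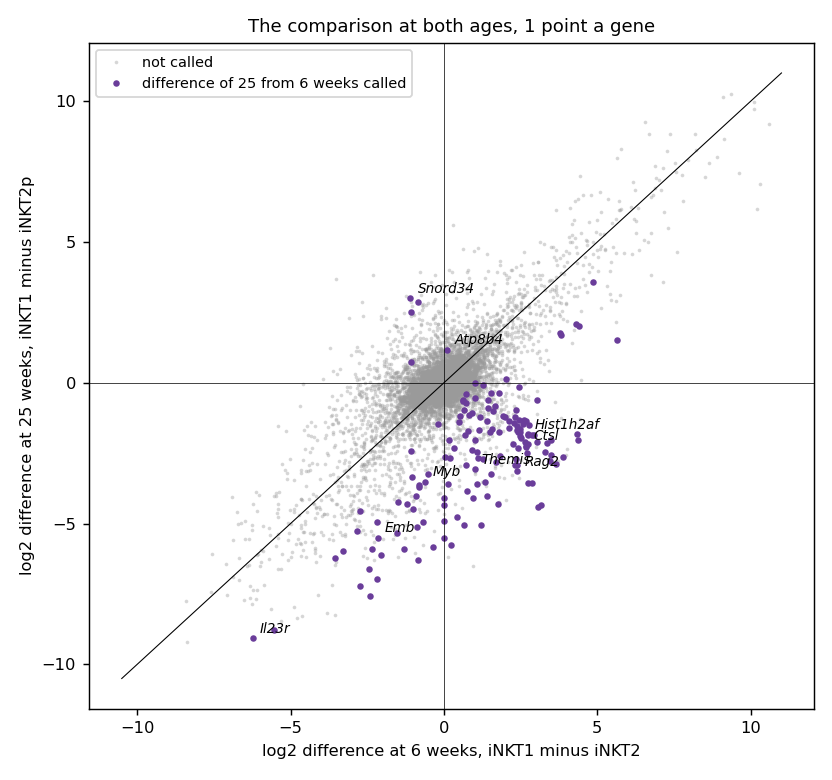
Log2 difference of iNKT1 minus iNKT2p at 25 weeks (vertical axis) against that of iNKT1 minus iNKT2 at 6 weeks (horizontal axis) for the 10761 tested genes. Purple points are the 148 genes for which limma called the difference between ages, grey points were not called, and the line marks equal values. Most purple points lie below the line, many of them at positive values at 6 weeks and negative values at 25 weeks.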

How the data were processed

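The authors sequenced total RNA of sorted cells, and per the labels and methods trimmed reads with Trim Galore 0.4.1 and cutadapt 1.9.1, aligned them with STAR 2.5.0c to mm10, used featureCounts for strand-specific gene counts and scaled these by size factors of DESeq2. The deposited values, called normalized counts here, are thus a signal in units of scaled reads. Whole reads were recovered for 100% of values within 0.01 reads. The labels and the methods name different RNeasy kits. Adjusted p-values of 9 comparisons in the deposited table were not used, nor was a DNase-treated repeat library.

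limma 3.58.1 in R 4.3.3 fitted log2(normalized count + 1), with a trend of the variance, for genes at 10 or more in at least 2 of the 4 libraries, with 12 libraries in 6 groups. Tests were two-sided, with Benjamini-Hochberg adjustment over 10761 genes. edgeR 4.0.16 (quasi-likelihood) and DESeq2 1.42.0 on recovered reads, other pseudocounts, filters, scalings and sets of libraries, and removal of the estimated iNKT17 share were the alternatives, 21 in all. In simulated data with 200 changed genes among 10693, the test recovered 26.9%, 97.0% and 100% of those changed by 1, 2 and 4 log2 units, with 7 unchanged genes called. The simulation gave every gene the same assumed spread, not one estimated from these libraries, and changed only genes well above the filter. Its figures therefore do not give the recovery or the false calls of the real comparison.

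Named were the sort genes, the 15 largest differences in each direction at a mean of at least 100 without overlap, up to 4 members of each of 31 lists at a mean of at least 50, the subset genes of the paper, and the 5 smallest p in each direction for the difference from 6 weeks. Some genes that this rule picks are not reported here, though the counts of lists include them. Other list members were named after their values were seen. Members and lists were chosen with earlier results of these data known. With 2 libraries a group, p-values measure the spread between pooled libraries.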

Additional observations from a re-analysis of the deposited data

Results flagged for a closer look

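Of the named genes, 24 differed between the ages in the size of iNKT1 minus iNKT2p, by the limma test of the difference itself. On the log2 scale, 25 minus 6 weeks, the values were −2.90 for Myb, −2.71 for Sox4, −4.06 for Themis, −5.53 for Rag2, −4.90 for Ctsl and −2.78 for Glcci1 among genes of thymocytes and early T cells. They were −5.23 for Nusap1, −3.55 for Ccnb2 and −3.03 for Kif20a among mitosis genes and −4.81 for Hist1h2bk, −4.73 for Hist1h2bm, −4.57 for Hist1h2af and −3.53 for Hist1h4f among histone genes. Others were −1.84 for Pdcd1, −4.22 for Ldhb and −3.35 for Emb. Of receptors and factors high in aged iNKT17 cells, they were −2.84 for Il23r, −3.25 for Il1r1 and −4.04 for Il2ra. With the iNKT17 share taken out of the iNKT2p values, these 3 became 0.50, −1.50 and −2.59, and none was called (limma adjusted p = 0.735, 0.489 and 0.170). The calls of Il23r and Il2ra held in 16 and 13 of 19 alternatives. Positive values were found with 3.56 for Snord49b, 4.09 for Snord34, 1.06 for Atp8b4, 3.71 for Snord68 and 1.83 for Oas3. The calls of Myb, Sox4, Themis, Rag2, Nusap1, Hist1h2bk, Hist1h2af, Hist1h4f, Ldhb, Ctsl, Glcci1 and Emb held in all 19 alternatives that gave this test, whereas those of Il1r1, Atp8b4, Snord68 and Oas3 held in 8, 8, 9 and 6. A library far from the others of its group could not be looked for, since each group had 2.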

How the results depend on the processing

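Of the 110 named genes that were called, 88 were called under every alternative that tested them, and 22 lost the call at least once, mostly without 1 of the 4 aged libraries. The counts of genes higher in iNKT1 and in iNKT2p cells were 1276 and 1383 with only the 4 libraries, and 1302 and 1415 with only the 6 libraries at 25 weeks. Without 1 library each, they ranged from 411 to 1087 and from 513 to 1215, and the count for the difference from 6 weeks from 51 to 1051. A lone library was then assumed to vary like the other groups. DESeq2 gave 339 genes for this difference. With the iNKT17 share taken out, the log2 difference of Blk became 0.66 and the difference of Il23r between the ages 0.50, both with the sign changed, which follows from the subtraction of aged iNKT17 levels. Other causes were not tested. No paired analysis was possible because the sort behind each library is not given in the labels. At 1 read per 0.710 to 1.29 normalized counts, differences of genes near the filter were limited by depth.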

Other observations

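Small nucleolar RNAs, which guide the chemical modification of ribosomal RNA, were looked at after their values were seen. Of 38 tested genes of the C/D box class, 24 were called higher in iNKT1 cells, none higher in iNKT2p cells and 14 were not called, with a median log2 difference of 2.48. Summed, they reached 27900.0 and 56891 normalized counts in iNKT1 and 7771 and 11467 in iNKT2p cells, without overlap. Library 2 was above library 1 in 36 of the 38 genes in iNKT1 cells and in 29 in iNKT2p cells. The young iNKT1 libraries were at 11365 and 39901, the young iNKT2 libraries at 19027 and 20014, within that range, and the aged iNKT17 libraries at 13896 and 21527. Of 26 genes of the H/ACA class, 5 were called higher in iNKT1 cells and 21 were not called. In contrast, none of 44 ribosomal protein genes was called by limma, and their median was −0.02. Cell number differed between the sorts as well, and its part in these values was not tested.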
